A study of Mus musculus with 13 samples.

Results

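Genes of the glycolytic route and of its reversal, 10 in all, were followed in haematopoietic stem cells (HSCs), which sit in bone marrow, renew themselves and feed all blood lineages. They are Fbp1, Aldoc, Aldoa, Gpi1, Pfkl, Pgk1, Eno1, Pkm, Ldha and Hk2. They were taken by gene symbol, and 10 of 10 were found among the 13201 genes of the deposited table and passed the filter that left 12846 genes for testing. The list was proposed with earlier results of these libraries in view, Fbp1 for its opposite differences between genotypes, so the members' differences are given as values, with a note of whether each passed the test, and with no p-value. The lists of other genes were also drawn up with earlier results known, so their p-values describe these libraries and are not independent tests.

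The 13 libraries each hold polyadenylated RNA of 100 mouse HSCs sorted from bone marrow, amplified by Smart-seq2, a full-length cDNA method for small inputs. Wild-type (WT) HSCs were compared with HSCs deficient in MEK1, the kinase upstream of ERK (KO), from untreated mice or from mice given 5-fluorouracil (5-FU), a drug that kills dividing cells. Untreated mice gave 3 WT libraries, named D1, D2 and D3, and 3 KO libraries, named D4, D5 and D6. Mice given 5-FU gave 4 WT libraries, A2, A3, A4 and another D4, and 3 KO libraries, A5, A6 and A8. The strain, the age, the 5-FU dose and time, the sort gate, the way Map2k1 was deleted and whether each library is a separate mouse are given in none of the sources used here, so tests measure the spread between libraries, which may be technical.

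Glycolysis splits glucose into pyruvate. Hexokinase, glucose-6-phosphate isomerase, phosphofructokinase and aldolase form its preparatory steps, which spend ATP, and the enzymes from glyceraldehyde-3-phosphate dehydrogenase to pyruvate kinase form its payoff steps, which make ATP. Fructose-1,6-bisphosphatase, encoded by Fbp1, runs the phosphofructokinase step backwards and is the committed step of gluconeogenesis, for which it is best known in liver and kidney. Quiescent HSCs are known for a reliance on glycolysis, and several of its genes are textbook targets of the hypoxia factor HIF1, which binds the short core motif ACGTG or GCGTG.

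The 250 bases before the transcription start are shown for Fbp1 and Aldoc, whose group means differ by the largest folds, and for Pgk1 and Ldha as 2 examples with more than 1 match of ACGTG. They were taken from RefSeq on GRCm38.p6 and are printed in the direction of transcription, with each ACGTG or GCGTG, or its reverse complement CACGT or CACGC, in capitals.
Fbp1 (chr13:62888283-62888532, minus strand): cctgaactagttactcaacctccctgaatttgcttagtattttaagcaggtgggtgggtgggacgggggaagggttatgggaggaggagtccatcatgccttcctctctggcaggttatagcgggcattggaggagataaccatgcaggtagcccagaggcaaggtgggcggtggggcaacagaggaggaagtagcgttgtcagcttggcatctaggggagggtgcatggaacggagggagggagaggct
Aldoc, first start (chr11:78322823-78323072, plus strand): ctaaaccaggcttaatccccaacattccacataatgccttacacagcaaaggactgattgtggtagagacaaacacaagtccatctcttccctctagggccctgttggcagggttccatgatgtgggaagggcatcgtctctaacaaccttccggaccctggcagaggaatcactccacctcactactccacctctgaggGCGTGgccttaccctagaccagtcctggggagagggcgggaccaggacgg
Pgk1 (chrX:106186850-106187099, plus strand): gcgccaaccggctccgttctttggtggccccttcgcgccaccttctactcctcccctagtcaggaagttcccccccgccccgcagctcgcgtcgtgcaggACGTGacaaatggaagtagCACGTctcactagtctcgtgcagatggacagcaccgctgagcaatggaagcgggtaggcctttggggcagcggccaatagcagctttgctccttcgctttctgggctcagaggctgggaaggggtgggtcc
Ldha, first start (chr7:46845554-46845803, plus strand): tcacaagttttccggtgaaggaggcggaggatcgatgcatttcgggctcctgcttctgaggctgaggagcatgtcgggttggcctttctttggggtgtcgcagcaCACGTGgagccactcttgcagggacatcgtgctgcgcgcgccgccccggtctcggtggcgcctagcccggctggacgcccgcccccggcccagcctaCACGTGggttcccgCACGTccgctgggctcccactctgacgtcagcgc
Fbp1 had no match in this window, Aldoc had 1 of the form GCGTG, Pgk1 had 2 of the form ACGTG, and Ldha had 5 of the form ACGTG, counting CACGTG once on each strand. Of the members not printed, Hk2 also had 2 of the form ACGTG. Of the 3 Eno1 windows 2 overlapped, and these shared the same 2 matches of the form GCGTG. All 10 members had at least 1 annotated start and 17 in all, of which 13 starts of 8 members held either motif. Fbp1 and Gpi1 held none. Over 32851 annotated mouse promoters, 16.6% held ACGTG, 28.2% held GCGTG and 38.6% held either. These are letters in a window and say nothing of binding.

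Levels are normalized counts, worked back from the deposited table for each library, and group values are means ± SD. Log2 differences come from the variance-stabilized values as deposited, with their standard error (SE), a scale that understates changes of low genes. A gene was called when its limma p, adjusted by Benjamini-Hochberg over 12846 genes, was below 0.05. Read totals of 12 libraries ran from 11416753 to 25380570, and untreated WT D1 had 45384866. The upper limit behind a gene with no read, 3 reads, was worth 0.979 to 4.35 normalized counts depending on the library. Map2k1, the gene of MEK1, was at 1262 ± 449 in untreated WT, 635 ± 105 in untreated KO, 1099 ± 584 in WT after 5-FU and 364 ± 83.8 in KO after 5-FU (n = 3, 3, 4 and 3). The untreated difference was not called (log2 -0.69 ± 0.30, limma adjusted p = 0.460) and the one after 5-FU was (log2 -0.96 ± 0.28, limma adjusted p = 0.0339), so Map2k1 reads remained in KO libraries, and which part of the gene was deleted is not known here. All 12 HSC markers were detected in at least 1 library of every group. Their summed counts were 22357 to 26435 in untreated WT, 19810.0 to 22108 in untreated KO, 15587 to 20383 in WT after 5-FU and 9117 to 10055 in KO after 5-FU. Single markers differed. Of the 12, 2 were called higher and 5 lower in the WT response, and 1 higher and 5 lower in KO against WT after 5-FU. The backgrounds were 6.68% and 10.9%. In WT after 5-FU Fgd5 was at 0 in 2 of 4 libraries, and Procr was at 54.7 ± 74.2 against 880 ± 95.2 untreated. Megakaryocyte markers, 9 of 9 present, summed to 31449 to 54753 in WT after 5-FU against 3724 to 7641 in the other 3 groups. Between WT and KO after 5-FU, 10 of 10 erythroid markers summed to 5663 to 6912 against 3632 to 4171, 8 of 10 neutrophil markers to 4101 to 5887 against 2249.8 to 2404, 4 of 7 mast cell and basophil markers to 1875 to 2354 against 285 to 824 and 4 of 10 B and T cell markers to 1204 to 1964 against 707 to 844. Sums follow their most abundant markers. Mast cell and basophil markers and B and T cell markers each had 1 called lower and 3 not called, at a background of 10.9%. In both lists 2 of 4 were higher in KO, with median log2 differences of -0.04 and -0.02. What part the shifts in summed cell markers have in the differences below was not tested. In these bulk samples fewer cells of a type and less RNA per cell cannot be told apart. WT libraries A3 and D4 after 5-FU were nearly alike, with a correlation across genes of 0.988 against 0.912 to 0.977 for the other 14 pairs within groups. The labels give them as 2 samples of different years, and whether they come from one pool of cells cannot be told here. If they do, WT after 5-FU has 3 samples, not 4. They were counted as 2, and averaging them into 1 changed no member's call but took the genes called between KO and WT after 5-FU from 1395 to 913.

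Between untreated KO and WT cells 0 of the 10 members were called, at a background of 0.0311% of all genes called (0.0234% higher and 0.00778% lower). After 5-FU 4 members were called between KO and WT, Fbp1, Pgk1 and Pkm higher and Aldoc lower in KO, at a background of 10.9% (5.36% higher and 5.50% lower). The response of WT cells to 5-FU had 2 members called, Fbp1 and Aldoc, both lower after 5-FU, at a background of 6.68% (3.72% higher and 2.96% lower). In KO cells the response also had 2, Pkm higher and Aldoc lower, at a background of 5.92% (2.78% higher and 3.14% lower). The genotype by 5-FU interaction was called for Fbp1 alone, at a background of 2.84% (1.04% positive and 1.80% negative). Nothing is read from these shares, since the members were picked with these contrasts known. Comparisons that share a group share its libraries. Groups without overlap between their libraries were found for 5 members in untreated KO against WT (background 11.5%), 6 after 5-FU (27.0%), 2 in the WT response (16.7%) and 5 in the KO response (28.8%).

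**Figure D1:**
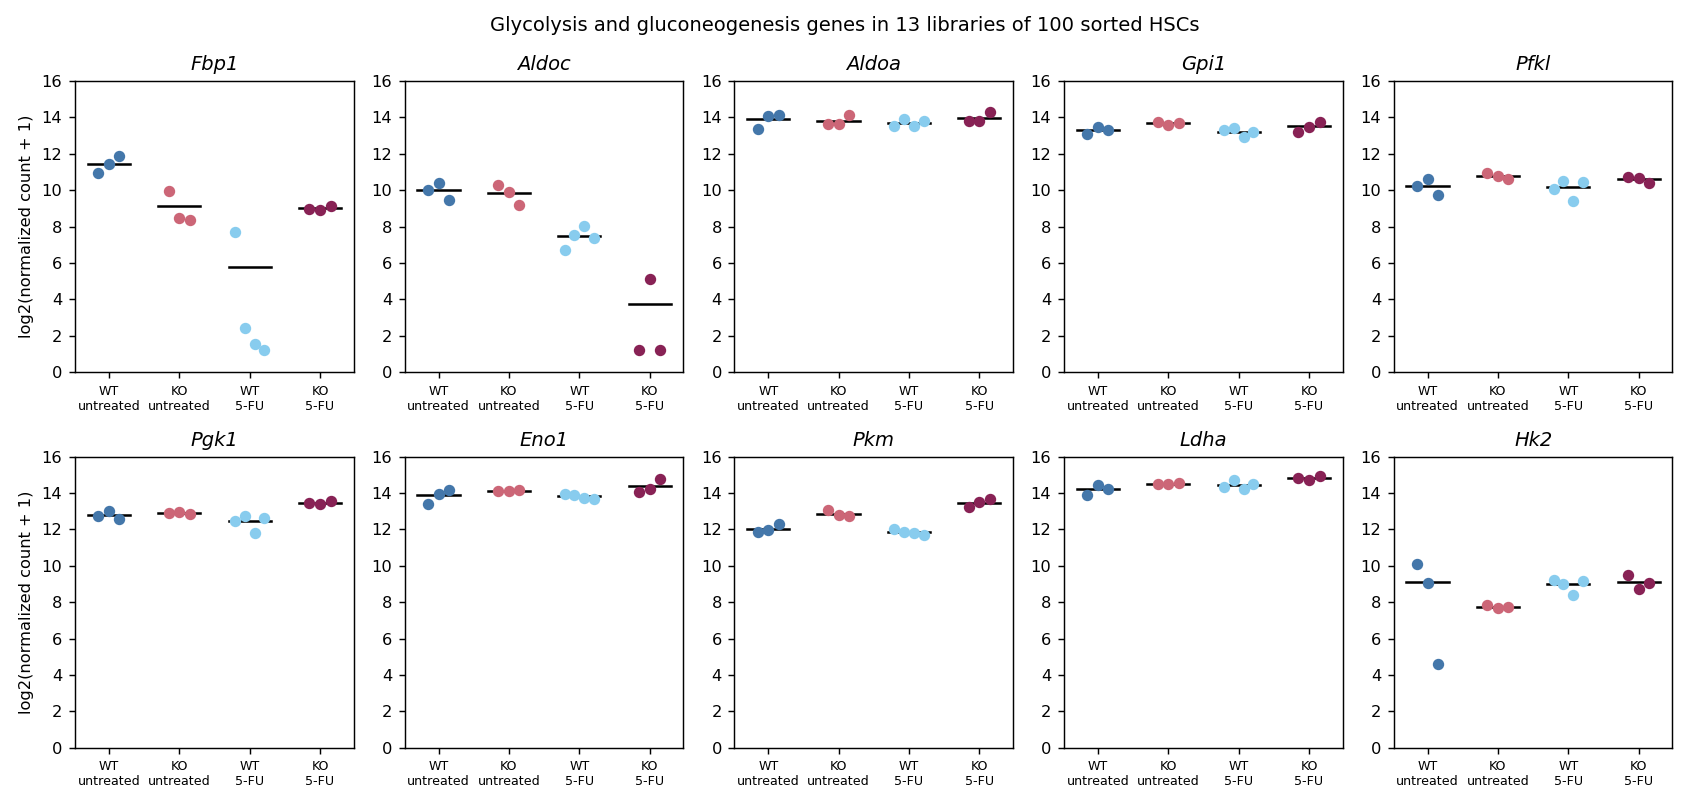
Level of each of the 10 members in 13 libraries, as log2 of the normalized count plus 1, with one point per library and a black line at the group mean of the counts (n = 3, 3, 4 and 3). Fbp1 runs from 3764 in an untreated WT library to 1.33 in a WT library after 5-FU, and Aldoc is at 1.3 to 34.2 in KO after 5-FU, while Aldoa, Gpi1, Eno1 and Ldha stay at high counts in every library.

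Fbp1 (ENSMUSG00000069805, chromosome 13, 62864753 to 62888282, minus strand, GRCm38) had its highest level in untreated WT cells, lower and similar levels in KO cells with and without 5-FU, and was nearly absent from 3 of 4 WT libraries after 5-FU. Untreated WT libraries had 1966, 2739.8 and 3764 normalized counts. Untreated KO libraries had 979, 356 and 326, so these groups did not overlap, and the KO mean was 5.10-fold lower (554 ± 369 against 2823 ± 902). On the log2 scale the difference was -1.86 ± 0.34 and was not called. It was called without untreated KO D4 (-2.19) and, at the same difference of -1.86, without WT A2 after 5-FU, which enters the shared spread.

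After 5-FU the order of the genotypes was the reverse. WT libraries had 206, 4.35, 1.9 and 1.33 counts in A2, A3, A4 and D4, from 178, 3, 2 and 2 reads. KO libraries had 501, 485 and 561. All KO libraries were above all WT libraries, with the KO mean of 515 ± 40.0 at 9.66-fold the WT mean of 53.4 ± 102, and the log2 difference of 1.63 ± 0.32 was called. The WT mean rests on A2. Without A2 the remaining 7 reads gave a KO to WT ratio of 239, with an exact 95% Poisson interval of 116 to 595 that covers counting error only, and the log2 difference was 1.93.

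In WT cells Fbp1 was 52.9-fold lower after 5-FU by group means (log2 -3.47 ± 0.32, called), and without A2 the ratio over the pooled reads was 1309.7 (interval 636 to 3258). The KO response was 0.02 ± 0.34 and was not called. The interaction, the difference between these responses, was 3.49 ± 0.47 and was called. Leaving out any 1 of the 13 libraries kept the interaction between 3.29 and 3.82. Untreated cells were acquired in 2015 and 5-FU cells in 2016, except WT D4 after 5-FU, of 2015. Within 2015, Fbp1 in that library was 3.82 lower on the log2 scale than in untreated WT. No KO library after 5-FU is of 2015, so KO libraries alone cannot tell year and 5-FU apart. A year term rests on WT D4 against WT A2, A3 and A4 after 5-FU, and so on 1 library. With that term the KO response was -0.44 and not called.

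Fbp1 is also known as a gene of monocytes and macrophages. Of 10 monocyte and macrophage markers 9 were measured, Adgre1 was not analysed here, and their summed counts were 17570 to 21020 in untreated WT, 15662 to 17976 in untreated KO, 14904 to 18331 in WT after 5-FU and 8820 to 9618 in KO after 5-FU. Most of that sum was Lyz2, at 8447 ± 505 in KO after 5-FU and 15981 ± 1293 in WT after 5-FU, the group with the lowest Fbp1. Cx3cr1 was at 0 in all untreated libraries and Ly6c2 in all untreated KO libraries. Cd68, a lysosomal protein of macrophages, was at 643 ± 58.7, 317 ± 104, 87.9 ± 48.7 and 185 ± 52.4 in untreated WT, untreated KO, WT after 5-FU and KO after 5-FU, so its group means had the same order as those of Fbp1. It is named as 1 of the 5 genes most like Fbp1, and other markers of the list did not have that order. In the same order of groups, C1qa was at 58.7, 29.9, 58.0 and 107, C1qb at 175, 17.2, 137 and 167, C1qc at 123, 0.353, 47.7 and 132, and Mrc1 at 68.8, 62.5, 74.1 and 97.8. Csf1r was at 78.7, 1.24, 2.16 and 22.1, Ly6c2 at 10.8, 0, 0.289 and 24.8, and Cx3cr1 at 0, 0, 82.9 and 20.6, highest where Fbp1 was lowest. The part of such cells in the Fbp1 differences was not tested.

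Set against phosphofructokinase, the enzyme it opposes, Fbp1 outweighed the sum of Pfkl, Pfkm and Pfkp per kilobase of exon in every untreated WT library and in 1 untreated KO library. The ratio of Fbp1 to that sum was 3.17, 3.86 and 7.92 in untreated WT and 1.02, 0.512 and 0.318 in untreated KO. After 5-FU the WT ratios were 0.279, 0.00719, 0.00503 and 0.00223 and the KO ratios 0.614, 0.588 and 0.616. The sum itself ran from 222 to 603 normalized counts per kilobase over the 13 libraries, against 0.780 to 2211 for Fbp1. Whether a ratio is above 1 depends on the exon lengths, which join all annotated exons of a gene. Before division by length, untreated WT means were 2823 for Fbp1, 1213 for Pfkl, 331 for Pfkm and 973 for Pfkp.

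**Figure D2:**
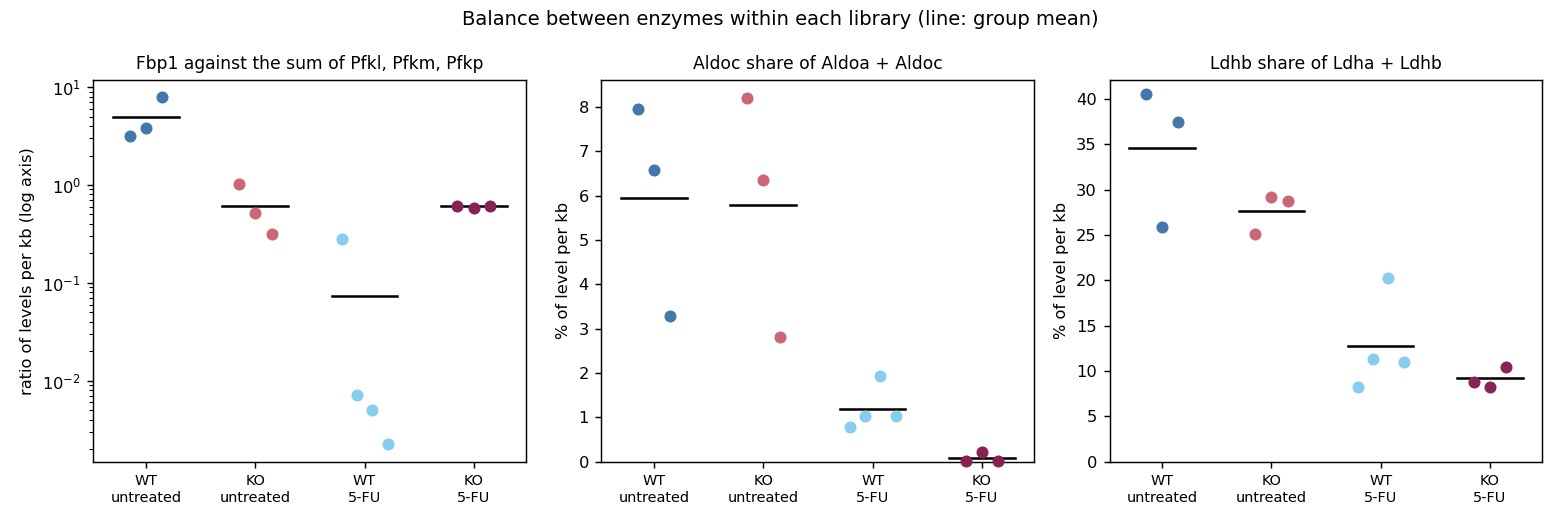
Balance between enzymes within each library, one point per library and a black line at the arithmetic group mean. From left to right are the ratio of Fbp1 to the summed phosphofructokinases on a log axis, the share of Aldoc in the aldolases and the share of Ldhb in Ldha plus Ldhb, all from levels per kilobase. The Fbp1 ratio falls from 3.17 to 7.92 in untreated WT to at most 0.279 in WT after 5-FU, and the Aldoc share is at most 0.213% in KO after 5-FU.

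Aldolase splits fructose-1,6-bisphosphate and joins it again in gluconeogenesis. Of its isozymes Aldoa is the form of muscle and of most cells, and Aldoc is best known from brain. Aldoc (ENSMUSG00000017390, chromosome 11, 78322968 to 78327781, plus strand) was lower after 5-FU in both genotypes, and more so in KO. Untreated WT libraries had 1036, 1360.0 and 689.7 normalized counts and untreated KO libraries 1255, 965 and 587, which overlap. After 5-FU the WT libraries had 103, 184, 259.6 and 165. KO libraries after 5-FU had 1.34, 34.2 and 1.3, from 1, 29 and 1 reads, below every WT library.

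The WT response of Aldoc was a 5.78-fold lower mean (log2 -1.48 ± 0.25, called) and the KO response a 76.2-fold lower mean (log2 -2.36 ± 0.26, called). Their difference, the interaction, was -0.88 ± 0.36 and was not called on the deposited scale, while on the scales of log2(normalized count + 1) and log2(normalized count + 5) it was -4.73 and -3.76 and was called. Within 2015, WT D4 after 5-FU was 1.51 lower than untreated WT, and with acquisition year as a term neither response was called (log2 -1.51 and -2.39). The WT response of -2.55 on the scale of log2(normalized count + 1) was not called either. After 5-FU the KO mean of 12.3 ± 19.0 was 14.5-fold below the WT mean of 178 ± 64.6 (log2 -0.99 ± 0.25, called). The KO mean rests on A6. Without A6 the 2 remaining reads gave a WT to KO ratio of 135, with an exact 95% Poisson interval of 37.2 to 1111. The call was lost without KO A5 (-0.92) or KO A8 (-0.91), and limma-voom on the recovered reads gave -5.01 without a call.

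Aldoa (ENSMUSG00000030695, chromosome 7, 126795234 to 126800751, minus strand) was the main aldolase throughout and was called in no comparison. Its normalized counts were 10703, 17254 and 18086 in untreated WT and 12531, 12716 and 18103 in untreated KO. WT libraries after 5-FU had 11664, 15593, 11774 and 14086 and KO libraries 14471, 14283 and 19823. All 4 groups overlapped. As a share of Aldoa plus Aldoc per kilobase, Aldoc made up 5.94% ± 2.39 in untreated WT, 5.78% ± 2.74 in untreated KO, 1.20% ± 0.503 in WT after 5-FU and 0.0758% ± 0.119 in KO after 5-FU (SD, n = 3, 3, 4 and 3). Aldoa overlaps Fam57b on the opposite strand and has retrocopies in the genome, so with unstranded libraries its count may hold reads of these. The same limit holds for Pkm, which overlaps Gm49759 on the same strand. It also holds for Gpi1 and Hk2, which overlap genes on the opposite strand, and for Eno1 and Ldha, which have named copies.

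Hk2, Gpi1 and Pfkl were called in no comparison. Hk2, an inducible hexokinase that traps glucose in the cell, was the most variable. It had 1080.3, 529 and 23.2 normalized counts in untreated WT and 229, 203 and 210.5 in untreated KO. After 5-FU it had 588, 522, 337 and 578 in WT and 715, 430.4 and 531 in KO. KO libraries after 5-FU were all above untreated KO libraries (2.61-fold by means, log2 0.75 ± 0.40). The untreated WT libraries ran from below every other library, in D3, to above every other library, in D1. The untreated difference of -0.40 ± 0.40 became 0.11 without WT D1 and the WT response of 0.26 ± 0.37 became -0.41 without WT D3, so neither has a stable sign. Hk2 made up 36.6% to 57.2% of the hexokinases Hk1, Hk2 and Hk3 per kilobase as group means.

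Gpi1, the isomerase that turns glucose-6-phosphate into fructose-6-phosphate, had 8568, 11547 and 10203 normalized counts in untreated WT and 13655, 12126 and 13224 in untreated KO. These groups did not overlap (log2 0.36 ± 0.16). After 5-FU it had 10026, 10863, 7803 and 9335 in WT and 9563, 11413 and 13789.9 in KO, which overlap. Pfkl, the liver form of phosphofructokinase and the committed step of glycolysis, had 1215, 1586 and 839 in untreated WT against 1979.7, 1762 and 1589.8 in untreated KO, again without overlap (log2 0.47 ± 0.22). After 5-FU the WT libraries, at 1081, 1453, 687 and 1391, and the KO libraries, at 1677, 1656 and 1324, overlapped. None of these differences was called.

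Past the aldolase step the picture after 5-FU was different. Pkm (ENSMUSG00000032294, chromosome 9, 59656368 to 59679375, plus strand), whose pyruvate kinase makes the last ATP of the route, lay higher in every KO library than in every WT library of the same treatment. Untreated WT libraries had 3722, 3959.8 and 4979 normalized counts and untreated KO libraries 8450.1, 7021 and 6941. With 5-FU the WT libraries had 4099.9, 3713, 3639 and 3352 and the KO libraries 9685, 11458 and 13026. The mean of KO was 1.77-fold the WT mean in untreated cells (log2 0.77 ± 0.15, not called) and 3.08-fold after 5-FU (log2 1.52 ± 0.14, called). Leaving out any 1 library kept the second difference between 1.42 and 1.63 and called.

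In KO cells Pkm was 1.52-fold higher after 5-FU (log2 0.58 ± 0.15, called), a call lost without untreated KO D5 (0.54) or D6 (0.53), without KO A6 (0.57) or A8 (0.48) after 5-FU, with quantile normalization (0.43) and with acquisition year as a term (0.41). In WT cells the response was -0.17 ± 0.14 and not called. The interaction of 0.74 ± 0.20 was not called, but was with equal library medians (0.81) and without untreated WT D1 (0.82). The table counts Pkm as a single gene, so its M1 and M2 splice forms were not told apart.

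Pgk1 (ENSMUSG00000062070, chromosome X, 106187100 to 106203699, plus strand), whose kinase makes the first ATP of the payoff steps, differed between genotypes after 5-FU. It had 6929, 8145 and 6145 normalized counts in untreated WT and 7675, 7863 and 7502 in untreated KO. With 5-FU the WT libraries had 5698, 6919, 3527 and 6328 and the KO libraries 11283, 10706 and 12025, and every KO library was above every other library of the study. The KO mean was 2.02-fold the WT mean (log2 1.00 ± 0.17, called), against 1.09-fold in untreated cells (log2 0.12 ± 0.19). The KO response of 0.54 ± 0.19 was not called, but was, at the same value, without WT A4 after 5-FU and with only the 2 KO groups in the fit. The interaction of 0.88 ± 0.25 was not called. The retrocopy Pgk1-rs7, which could share reads with it, was at 42.0 to 49.8 as group means.

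Eno1, the enolase that makes phosphoenolpyruvate, held 97.2% to 98.8% of Eno1, Eno2 and Eno3 per kilobase as group means. Its normalized counts were 10848, 16132 and 18637 in untreated WT and 17786, 17486 and 18611 in untreated KO. With 5-FU, WT libraries had 16044, 15390.5, 13784 and 12905 and KO libraries 17176, 19024 and 28208, with no overlap. The difference of 0.52 ± 0.18 on the log2 scale was not called, though it was with quantile normalization (0.53), with equal library medians (0.60) and, at 0.52, without untreated WT D1.

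Among their neighbours in the pathway, listed apart from the 10 members, 3 were called higher and 1 lower in KO than in WT after 5-FU. Triosephosphate isomerase Tpi1 had 15549, 15189.6 and 19823 normalized counts in KO against 8456, 8895, 7392 and 7549 in WT (2.09-fold, log2 1.02 ± 0.15, limma adjusted p = 0.000364). Its untreated means were 15833 ± 2140 in KO and 12600 ± 2667 in WT. Phosphoglycerate mutase Pgam1 had 5642, 6476 and 6853 in KO against 3356, 2189, 2365 and 2257 in WT (2.49-fold, log2 1.21 ± 0.15, limma adjusted p = 8.5e-05). Glyceraldehyde-3-phosphate dehydrogenase Gapdh had 27083, 24379.8 and 30689 in KO against 17378, 17548, 13440.3 and 15953 in WT (1.70-fold, log2 0.76 ± 0.16, limma adjusted p = 0.00696). In all 3 the KO libraries lay above all WT libraries.

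Bpgm, which diverts 1,3-bisphosphoglycerate away from the ATP-making step in red cells, went the other way. It had 701, 689.8 and 740.2 in KO and 1247, 1266, 1023 and 1181 in WT after 5-FU (1.66-fold lower, log2 -0.53 ± 0.16, limma adjusted p = 0.0469). That call ended in 7 of 13 fits without 1 library (untreated KO D4, WT A2, A3 or D4 and KO A5, A6 or A8 after 5-FU) and in 5 of 10 other settings, with adjusted p from 0.0321 to 0.147 and differences from -0.73 to -0.45 over all of them. Bpgm in untreated KO libraries, at 616 to 901, was also below untreated WT libraries, at 936 to 1238, without a call. Erythroid markers after 5-FU summed to 5663 to 6912 in WT and 3632 to 4171 in KO. Klf1 was at 1897 ± 728 against 353 ± 156 and Rhag at 1439 ± 449 against 60.0 ± 50.3. Of 9 erythroid markers tested there 4 were called lower and 5 were not called. From untreated to 5-FU their mean sum went from 2115 to 6448 in WT and from 1888 to 3893 in KO. Mean Bpgm went from 1082 to 1179 and from 745 to 710. The part of these markers in the Bpgm difference was not tested.

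Of the 13 measured glycolytic enzymes outside the members, 3 were called higher, 1 lower and 9 not called in KO against WT after 5-FU. The background was 10.9% of all genes called. The median log2 difference of the 13 was 0.34 against -0.02 over all 12846 genes. The 10 members had 3 higher, 1 lower and 6 not called, with a median of 0.37. Grouped by place in the route, a grouping drawn up after the values were seen, the 8 payoff genes from Gapdh to Pkm had 4 higher and 0 lower, with a median of 0.64, and with the side branch Bpgm added 4 higher and 1 lower of 9, with a median of 0.52. Pgk1 and Pkm, 2 of the 4, are members picked with this contrast known, and Fbp1 stands outside the grouping. The 10 preparatory genes from hexokinase to Tpi1 had 1 higher and 1 lower, with a median of 0.34, and the 3 lactate dehydrogenase genes had 0 called, with a median of 0.06. In untreated cells 0 genes of each of these groups were called and the medians were 0.15, 0.17 and -0.12.

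**Figure D3:**
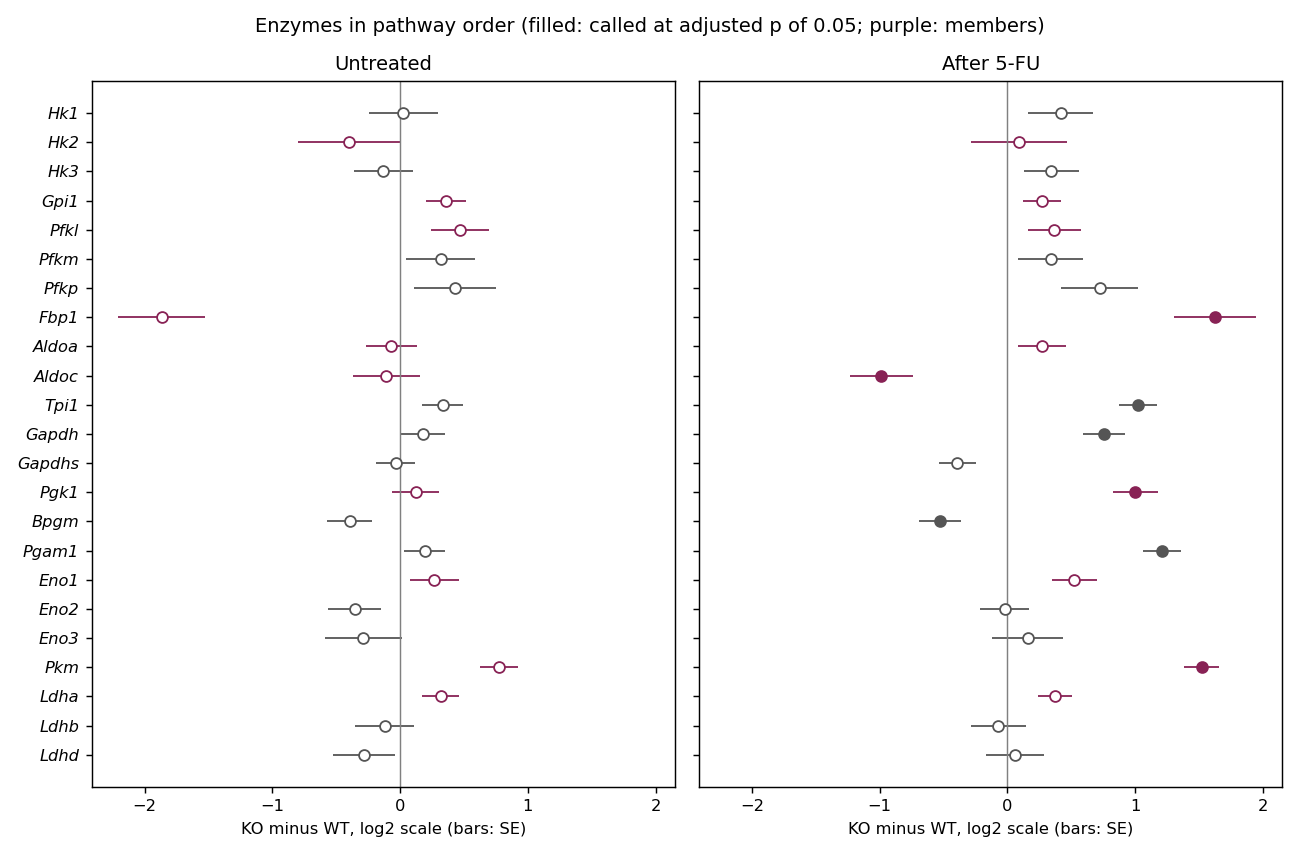
Log2 difference of KO minus WT for 23 enzymes in pathway order, untreated on the left and after 5-FU on the right. Points are estimates from the deposited values, bars are 1 SE, filled points were called and purple points are the 10 members. After 5-FU the filled points to the right of 0 are Fbp1, Tpi1, Gapdh, Pgk1, Pgam1 and Pkm, and those to the left are Aldoc and Bpgm, and no point is filled in untreated cells.

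The genotype by 5-FU interaction was called for 1 of the 13 neighbours tested, Pgam1, at a background of 2.84%. In WT cells Pgam1 fell from 4196, 5101 and 4156 to 3356, 2189, 2365 and 2257 normalized counts (1.76-fold, log2 -0.75 ± 0.15, limma adjusted p = 0.00607, with 0.00139 to 0.0723 over the alternatives, the highest with acquisition year as a term, where it was not called). Its interaction was 1.02 ± 0.22 (limma adjusted p = 0.0197). That call was lost without KO A6 (1.00) or A8 (0.96) after 5-FU, with adjusted p up to 0.0644 over the fits without 1 library.

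Tpi1 in WT fell from 10052, 15371 and 12376 to 8456, 8895, 7392 and 7549 after 5-FU (log2 -0.60 ± 0.15, limma adjusted p = 0.0227). The call was lost without untreated WT D2 (-0.45) or D3 (-0.60), without WT A4 (-0.56) or D4 (-0.57) after 5-FU, with only the 2 WT groups in the fit (-0.60) and with acquisition year as a term (-0.69). Over these alternatives its adjusted p ran from 0.00256 to 0.179.

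Lactate dehydrogenase turns pyruvate into lactate, and its A subunit, from Ldha, is the form of fast glycolysis, while the B subunit, from Ldhb, is that of heart. Ldha had 15259, 22182 and 19509 normalized counts in untreated WT and 23526, 22779 and 24203 in untreated KO. After 5-FU it had 20994, 27012, 19169.9 and 23402 in WT and 29201, 27372 and 31134 in KO. KO libraries lay above WT libraries in both states, by 0.32 ± 0.14 and 0.37 ± 0.14 on the log2 scale. Neither difference was called, and the second was with quantile normalization (0.55), with equal library medians (0.45) and, at 0.37, without untreated WT D1.

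Ldhb fell after 5-FU in both genotypes. In WT it went from 4932, 3681 and 5541 to 900.3, 1634, 2318 and 1379.5 (3.03-fold, log2 -1.43 ± 0.22, limma adjusted p = 0.000677). In KO it went from 3736, 4446 and 4636 to 1339.7, 1172 and 1733 (3.02-fold, log2 -1.39 ± 0.23, limma adjusted p = 0.00221, with 0.00103 to 0.190 over the alternatives, the highest with acquisition year as a term, where it was not called). As a share of Ldha plus Ldhb per kilobase it was 34.6% ± 7.70 in untreated WT, 27.7% ± 2.25 in untreated KO, 12.7% ± 5.23 in WT after 5-FU and 9.20% ± 1.16 in KO after 5-FU.

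Ldhd, a mitochondrial enzyme of D-lactate, had 145, 307 and 192 normalized counts in untreated WT and 4.63, 2.9, 1.9 and 1.33 after 5-FU (log2 -1.22 ± 0.23, limma adjusted p = 0.00366, with 0.000563 to 0.0976 over the alternatives, the highest with acquisition year as a term, where it was not called). In KO it went from 19.3, 199 and 259 to 17.5, 1.18 and 1.3 (log2 -0.88 ± 0.24, limma adjusted p = 0.0417). This second call ended in 8 of 13 fits without 1 library (untreated KO D5 or D6, WT A3, A4 or D4 and KO A5, A6 or A8 after 5-FU) and in 5 of 10 other settings, with adjusted p from 0.00605 to 0.591 and differences from -4.67 to -0.67.

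Per kilobase of exon, averaged over the 13 libraries, Ldha had the highest level of the members at 7105 normalized counts, followed by Aldoa (5049), Pgk1 (3453), Eno1 (3175), Gpi1 (1694), Pkm (1293), Fbp1 (537), Pfkl (210.2), Aldoc (157) and Hk2 (77.0). Ranges over libraries overlapped between each neighbouring pair in that order, for example 4610.1 to 9406 for Ldha and 3677 to 6809.7 for Aldoa. The highest 6 were above 92.5% of tested genes and Hk2 above 49.7%. As a fold the widest range was that of Fbp1, from 0.780 to 2211 per kilobase, which takes in the whole ranges of Hk2 and of Gpi1. The order was not the same in each group. In untreated WT the mean of Fbp1 (1659) was above those of Gpi1 (1566) and Pkm (844) and that of Aldoc (315) above that of Pfkl (182). These orders depend on the length used, all annotated exons of a gene joined, which may exceed the mRNA present. It was 1702 bases for Fbp1, 6452 for Gpi1 and 5001 for Pkm. Before division by length, Gpi1 (10106) and Pkm (4220) were above Fbp1 (2823) in untreated WT, and Pfkl (1213) above Aldoc (1028). In WT after 5-FU Fbp1 was at 31.4, the lowest, and in KO after 5-FU Pkm (2277) was above Gpi1 (1796) and Aldoc, at 3.76, was the lowest.

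Across the 13 libraries the deposited values of Eno1 and Pkm had a Pearson correlation of 0.796 and those of Pgk1 and Pkm 0.788, while Aldoc and Ldha had -0.642. Of the 45 pairs of members 33 were positive, with a median of 0.23. The highest correlation of Fbp1 with another member was 0.475, with Aldoc, and the lowest -0.29, with Ldha. These are descriptions over libraries that share groups and normalization. Among 10343 protein-coding genes with a mean of at least 50 counts, those most like Fbp1 were Lpcat2 (0.909), a lysophospholipid acyltransferase of inflammatory cells, Rfc3 (0.908), a subunit of the clamp loader of DNA replication, Atg10 (0.907), an autophagy enzyme, Ctsh (0.906), a lysosomal cathepsin, and Cd68 (0.906). Lpcat2 had 216 ± 44.3, 48.9 ± 28.2, 0.600 ± 0.722 and 32.3 ± 23.3 counts in untreated WT, untreated KO, WT after 5-FU and KO after 5-FU. Most like Aldoc were Zfp1 (0.952), Irgm1 (0.948) and Cyp2j9 (0.946), which had group means of 218, 1236 and 221 in KO after 5-FU and 620.2, 3299 and 1766 in untreated WT.

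Among 5 regulators of glycolytic flux 1 was called higher and 4 not called in KO against WT after 5-FU, at a background of 10.9%. The median log2 difference was 0.00. The gene called higher was Tigar, a phosphatase that lowers fructose-2,6-bisphosphate, the activator of phosphofructokinase and inhibitor of the Fbp1 enzyme. It had 45.7, 68.4 and 164 normalized counts in KO and 0 in all 4 WT libraries after 5-FU (log2 0.83 ± 0.23, limma adjusted p = 0.0294). Untreated WT libraries had 0.653, 78.7 and 0 and untreated KO libraries 122, 1.64 and 56.1. The call was lost without WT A3, A4 or D4 or KO A6 or A8 after 5-FU, with A3 and D4 averaged and with acquisition year as a term, with adjusted p from 0.00533 to 0.150 and differences from 0.66 to 7.31 over the alternatives.

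Of 8 measured transporters of glucose and lactate 1 was called higher and 7 not called after 5-FU in KO against WT. The background was 10.9% and the median of the list 0.07. The glucose transporters Slc2a1 (log2 0.17, limma adjusted p = 0.688) and Slc2a3 (-0.19, 0.724) were among those not called. The gene called higher in KO was Emb, embigin, a chaperone of lactate transporters, whose group means had the same order as those of Fbp1. It had 5904, 8046 and 8077 normalized counts in untreated WT, 4529, 4966 and 4599 in untreated KO, 859.8, 73.9, 82.7 and 54.5 in WT after 5-FU and 2471, 5400.4 and 3508 in KO after 5-FU. WT A2 was the highest WT library after 5-FU for Emb as for Fbp1. The KO mean after 5-FU was 14.2-fold the WT mean (log2 3.03 ± 0.35, limma adjusted p = 4.29e-05), and 53.9-fold without A2. The WT response was a 27.4-fold lower mean (log2 -3.97 ± 0.35, limma adjusted p = 5.7e-06), 104-fold without A2, and the interaction was 3.63 ± 0.51 (limma adjusted p = 0.00166).

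Of the 7 tested gluconeogenic enzymes other than Fbp1, 1 was called higher and 6 not called in KO against WT after 5-FU. The background was 10.9% and the median of the list 0.38. Mdh2, the mitochondrial malate dehydrogenase that serves both the citric acid cycle and gluconeogenesis, had 18051, 16937 and 20991 normalized counts in KO and 12457, 9557, 7605 and 8600.1 in WT (1.95-fold, log2 0.95 ± 0.15, limma adjusted p = 0.000731). In KO cells it rose from 9832, 11667 and 10598 untreated (log2 0.78 ± 0.16, limma adjusted p = 0.00948, with 0.00422 to 0.598 over the alternatives, the highest with acquisition year as a term, where it was not called). Pck2, the mitochondrial form of the enzyme that makes phosphoenolpyruvate from oxaloacetate, was not called (log2 -0.30, limma adjusted p = 0.441).

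At the entry of pyruvate into mitochondria 0 of 12 genes were called higher and 1 lower in KO against WT after 5-FU. The background was 10.9% and the median of the list 0.33. The gene called lower was Pdk2, a kinase that switches off pyruvate dehydrogenase. It had 329.7, 159 and 181 normalized counts in untreated WT and 533, 801, 926 and 829.6 in WT after 5-FU, and 699, 541 and 285 in untreated KO and 37.6, 28.3 and 169 in KO after 5-FU. Its genotype difference after 5-FU was 9.86-fold (log2 -1.67 ± 0.25, limma adjusted p = 0.000439) and its interaction was -2.30 ± 0.37 (limma adjusted p = 0.00505), opposite in sign to those of Fbp1 and Emb. The WT rise (log2 1.05 ± 0.25, limma adjusted p = 0.0184) lost its call without untreated WT D2 (0.96) or D3 (1.00), without WT D4 after 5-FU (1.02) and in 4 of 10 other settings, with adjusted p from 0.0136 to 0.193. The KO fall (log2 -1.25 ± 0.27, limma adjusted p = 0.0107) lost it without untreated KO D4 (-1.08), without KO A5 (-1.15) or A6 (-1.11) after 5-FU, with limma-voom (-3.11) and with acquisition year as a term (-1.13), with adjusted p from 0.00745 to 0.538.

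The pentose phosphate pathway, which draws on glucose-6-phosphate before the Fbp1 step, had 0 of 8 genes called in each of the 5 comparisons. The backgrounds were 0.0311% (untreated), 10.9% (after 5-FU), 6.68% and 5.92% (WT and KO responses) and 2.84% (interaction). The median in KO against WT after 5-FU was 0.16. Genes of the pathway with the smallest p there were Pgd (log2 0.43 ± 0.17, limma adjusted p = 0.124) and G6pdx (log2 0.35 ± 0.21, limma adjusted p = 0.320).

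Of 11 hypoxia targets tested outside glycolysis, 0 were called higher, 4 lower and 7 not called in KO against WT after 5-FU. The background was 10.9% and the median of the list -0.40. Any part of HIF1 in these differences was not tested. Bnip3l, a mitophagy receptor, had 1333, 1362 and 1733 normalized counts in KO and 3336, 3035, 3712 and 3119 in WT (it fell by 1.00 ± 0.16 on the log2 scale, limma adjusted p = 0.000651). Ndrg1, a stress-responsive gene, had 1225, 1415 and 1933 in KO and 3192, 4278, 3482 and 3917 in WT (log2 -1.12 ± 0.20, limma adjusted p = 0.00161).

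The other 2 were Kdm3a, a histone demethylase (log2 -0.82 ± 0.21, limma adjusted p = 0.0213), and Bnip3, a mitophagy receptor (log2 -0.62 ± 0.18, limma adjusted p = 0.0308). Kdm3a lost its call without WT A3 or A4, without KO A5, A6 or A8 after 5-FU and with limma-voom, with adjusted p from 0.0129 to 0.0894 and differences from -1.28 to -0.73 over the alternatives. Bnip3 lost its call without any 1 of WT A3, A4 or D4 or KO A5, A6 or A8 after 5-FU and in 5 of 10 other settings, with adjusted p from 0.00437 to 0.117 and differences from -0.85 to -0.54.

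In WT cells Bnip3l rose after 5-FU from 1936, 2101 and 1947 (log2 0.63 ± 0.16, limma adjusted p = 0.0238), and its interaction was -0.99 ± 0.23 (limma adjusted p = 0.0298). The first call was lost without untreated WT D3 (0.62), without WT A4 (0.58) or D4 (0.65) after 5-FU and with acquisition year as a term (0.56), with adjusted p from 0.0143 to 0.312. The second was lost without untreated KO D4 (-1.03) or D6 (-0.82), without WT A4 (-0.94) or D4 (-1.01) or KO A5 (-0.93) or A6 (-0.95) after 5-FU and with acquisition year as a term (-1.01), with adjusted p from 0.0249 to 0.0930. Kdm3a rose in WT as well (log2 0.79 ± 0.21, limma adjusted p = 0.0337), a call that ended without untreated WT D2 or D3, without WT A3, A4 or D4 or KO A6 after 5-FU and in 3 of 10 other settings, with adjusted p from 0.0231 to 0.413 and differences from 0.63 to 1.24.

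**Figure D4:**
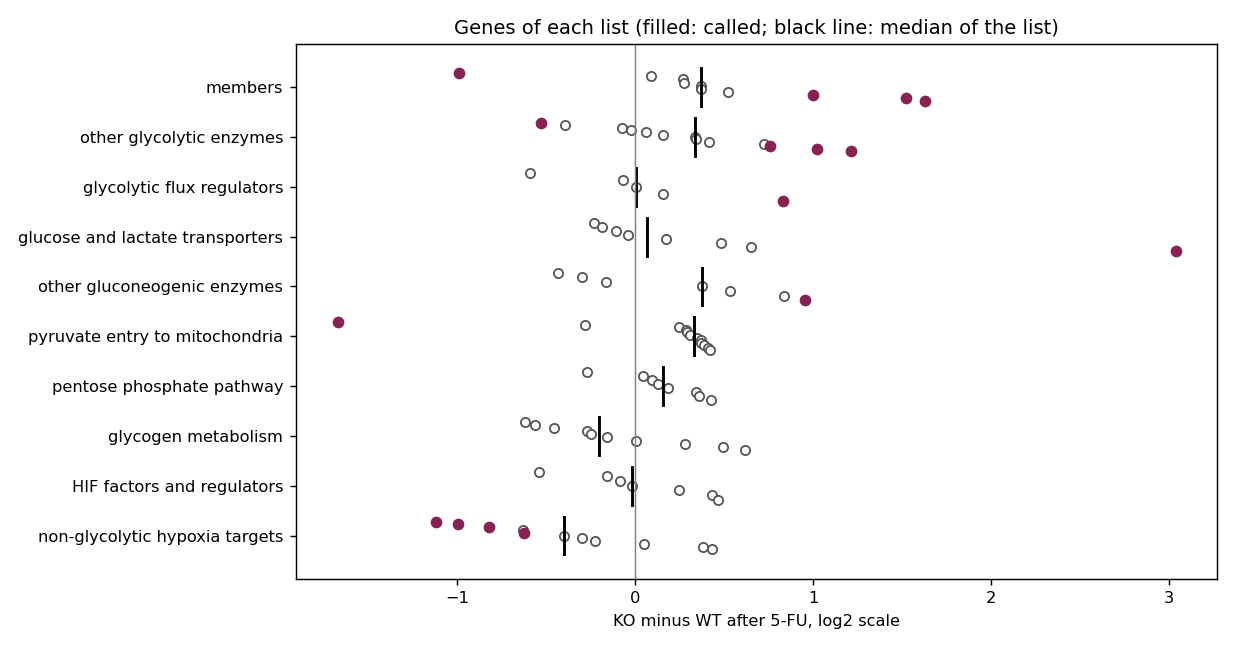
Log2 difference of KO minus WT after 5-FU for the tested genes of each list, one point per gene, with filled points called and a black line at the median of the list. The medians run from -0.40 for the hypoxia targets outside glycolysis to 0.38 for the other gluconeogenic enzymes, and the point farthest to the right is Emb at 3.03.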

How the data were processed

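The authors deposited one table of log2-scale values for 13201 mouse genes in 13 libraries, normalized and variance-stabilized with DESeq2, per the submitters' processing notes, which also name Trimmomatic, Bowtie 1.1.1 and the mm10 build. The counting tool, annotation and strand setting stand in none of the sources used here, and Smart-seq2 does not mark strand. The transformation was inverted from its value at a count of 0, 7.648 in every library, and a constant the table holds above 0 in each library, worth 1 read (2 in untreated WT D1), was taken off. The reads so recovered were whole within 0.1 for 100% of genes in all 13 libraries, and normalized counts are those reads divided by the size factor. Symbols came from GENCODE M21 (13054 of 13201 identifiers) and exon lengths from the same annotation, with all annotated exons of a gene joined. Levels per kilobase therefore compare different genes only as far as those lengths match the mRNA present. Read totals and what 3 reads are worth stand in the report; intervals cover counting error only.

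Genes with at least 10 normalized counts in at least 3 libraries, 12846 in all, were tested on the deposited values. The model, in R 4.3.3 with limma 3.58.1, had a mean for each of the 4 groups and a moderated spread with a trend on the mean, and p was adjusted by Benjamini-Hochberg at 0.05. The fit was also run on simulated independent libraries, with changes set in KO after 5-FU alone and in genes with a mean count of at least 50. Those libraries held no near-duplicate pair and no effect of year, and no result here rests on them. Other steps ran in Python 3.11.15 with pandas 2.3.3, numpy 2.4.6 and scipy 1.17.1, and drawing in matplotlib 3.10.9. Alternatives were no filter, a minimum of 50, log2(normalized count + 1) and log2(normalized count + 5), quantile normalization, equal library medians, limma-voom on recovered reads, the compared groups alone, WT A3 and D4 after 5-FU averaged, acquisition year as a term and each library left out in turn. The year term rests on WT D4 against WT A2, A3 and A4 after 5-FU. With it the WT response compares D4 alone with untreated WT, and KO against WT after 5-FU leaves D4 out.

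Members and lists were chosen with earlier results of these libraries known. The text names the 10 members, the called genes of each list (or the 2 with the smallest p where none was called), the 5 protein-coding genes most like Fbp1 (Pearson, mean count of at least 50), the 3 most like Aldoc and Map2k1. Genes named beyond this rule, chosen after their values were seen, are Slc2a1, Slc2a3, Pck2, Pgk1-rs7, Klf1, Rhag and the single monocyte and macrophage markers. Promoter sequences are RefSeq's.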

Additional observations from a re-analysis of the deposited data

Results flagged for a closer look

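In the 4 WT libraries after 5-FU, the gap between the farthest library and its nearest neighbour, as a share of the group's range, was above Dixon's 95% critical value for 4 samples in 4 of the 30 genes checked. It was 0.920 for Fbp1, whose highest library was A2, 0.910 for Emb, again highest in A2, 0.851 for Pygm, a glycogen phosphorylase highest in A4, and 0.838 for Bnip3, lowest in A2. For 4 independent, normally distributed samples chance gives such a gap in about 1 in 20 groups. A3 and D4 may come from the same pool of cells, so that rate may not hold here. The flags of Fbp1, Emb and Bnip3 come from the same library, A2. The share over all tested genes is not given, so nothing is read from the number of genes flagged.

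The interaction term in limma, the KO response to 5-FU minus the WT response, was called for 365 of all 12846 genes tested. Among the members and the metabolic and hypoxia lists these were 5. The log2 value was 3.63 for Emb, 1.02 for Pgam1, -2.30 for Pdk2 and -0.99 for Bnip3l. That of Fbp1, 3.49, is a description only, since Fbp1 was chosen for its opposite differences between genotypes. The others belong to lists that were drawn up with earlier results known.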

How the results depend on the processing

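Over the 10 members and 5 comparisons, settings other than leaving out a library kept direction and call in 469 of 490 values, and leaving out 1 library did so in 612 of 650. Genes called between untreated KO and WT numbered 4, and 2 with a minimum of 50, 9 on log2(normalized count + 1), 0 with limma-voom (1801 at an unadjusted p under 0.05), 0 with limma on only the compared groups (880 so), 2 with A3 and D4 averaged and 2 with acquisition year. After 5-FU they were 1395, and 869 with limma-voom, 913 averaged and 881 with year. The WT response had 858, and 415 with only its groups, 510 averaged and 219 with year. The KO response had 761, and 408 with limma-voom and 7 with year. The interaction had 365, and 237 averaged and 199 with year. Some settings raised the counts. The largest were 1846 after 5-FU and 1029 in the KO response, both with only the compared groups. For the WT response the largest was 1041 with limma-voom, and for the interaction 383 with quantile normalization. Of members, the WT response had 2 called, and 1 on log2(normalized count + 1) and 1 with year. The KO response had 2, and 1 with quantile normalization and 0 with year. The interaction had 1, and 2 on log2(normalized count + 1), 2 on log2(normalized count + 5) and 2 with equal medians. Over the same settings 3 to 6 members were called between KO and WT after 5-FU, and at most 3 in the KO response. Leaving out 1 library, in the order untreated, after 5-FU, WT response, KO response and interaction, gave 1 to 25, 694 to 1606, 464 to 990, 356 to 979 and 140 to 476 genes, and 0 to 1, 3 to 6, 2 to 2, 1 to 3 and 1 to 2 members.

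The log2 difference changed sign with year for the KO response of Fbp1 (-0.44) and the WT and KO responses of Pfkl (0.18 and 0.17). It did so with limma-voom for untreated Aldoa (0.050), the WT response of Eno1 (0.070) and the interaction of Ldha (-0.023), and with quantile normalization for the WT response of Ldha (-0.020). Leaving out 1 library moved the KO response of Fbp1 from -0.16 to 0.35, untreated Aldoc from -0.30 to 0.11 and untreated Aldoa from -0.30 to 0.065. For Gpi1 the WT response moved from -0.19 to 0.013 and the interaction from -0.22 to 0.036, and for Pfkl from -0.25 to 0.11 and from -0.27 to 0.084. The WT response of Eno1 moved from -0.25 to 0.13 and the interaction of Ldha from -0.064 to 0.20. Hk2 moved from -1.07 to 0.11 untreated, -0.035 to 0.20 after 5-FU, -0.41 to 0.77 in the WT response and -0.022 to 1.16 in the interaction. None of these was called, and the cause was not tested. No paired analysis was possible because the groups compared share no replicate labels that pair libraries. Means without 1 library were chosen after seeing the data.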

Other observations

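No interaction was called for a glycogen gene. Of 10 tested, 0 were called in the WT response to 5-FU (background 6.68%), with a median log2 difference of -0.27. In KO 3 were called lower after 5-FU and 0 higher (background 5.92%), with a median of -0.24. Pygl, the liver form of glycogen phosphorylase, went from 2877, 1485 and 2187 to 584, 934 and 787 normalized counts (log2 -1.15 ± 0.26, limma adjusted p = 0.0124), a call lost without untreated KO D4 (-0.96) or KO A5 after 5-FU (-1.03), with limma-voom (-1.45) and with acquisition year as a term (-0.91), with adjusted p from 0.00837 to 0.634. Gbe1, the branching enzyme, went from 1184, 787 and 1132 to 368, 255 and 431 (log2 -1.02 ± 0.26, limma adjusted p = 0.0269), lost without untreated KO D4 or D6, without KO A5, A6 or A8 after 5-FU, with limma-voom and with acquisition year as a term, with adjusted p from 0.0176 to 0.596 and differences from -1.57 to -0.90. Pygm, the muscle form, went from 396, 519 and 387 to 17.5, 94.3 and 22.1 (log2 -1.33 ± 0.38, limma adjusted p = 0.0489), lost in 9 of 13 fits without 1 library (any untreated KO library, WT A2, A3 or D4 and any KO library after 5-FU) and in 8 of 10 other settings, with adjusted p from 0.00527 to 0.489 and differences from -3.65 to -1.23.

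Of 7 HIF factors and regulators 1 was called, Egln1, an oxygen-sensing hydroxylase, in the WT response (background 6.68%). In WT it went from 352, 519 and 695 to 241, 225, 104 and 156 after 5-FU (log2 -0.80 ± 0.23, limma adjusted p = 0.0456), a call lost in 9 of 13 fits without 1 library (untreated WT D2 or D3, untreated KO D6, WT A3, A4 or D4 and any KO library after 5-FU) and in 8 of 10 other settings, with adjusted p from 0.0298 to 0.278 and differences from -1.54 to -0.65.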
